A study of Mus musculus with 6 samples.

Results

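Interferon-stimulated genes are the genes that a cell turns on when an interferon binds its receptor, and 47 of them, from Adar to Zbp1, were followed here in mouse spleen. A gene was measured where a probe of the array carried its symbol alone in the platform annotation. That held for 43 of the 47, on 51 probes, out of 17848 genes on 34949 probes. No probe carried the symbol of Ifit3, Ifi44, Oas1g or Rtp4 alone, so these 4 have no value here. The study compared total RNA from the spleens of 3 control female BALB/c mice with that of 3 female BALB/c mice exposed to 0.1 mM lead (Pb) since gestation day 8, all at 21 days of age, on CodeLink whole genome arrays read in 1 colour. It addresses which splenic transcripts differ after exposure to lead during development. The labels give neither the litter of each animal nor the route of exposure, and no genetic change in either group. The p-values rest on the spread between arrays of samples that the labels list as separate animals. That spread includes the noise of each array. It was taken after a correction described below, and the test takes no account of the fitting of that correction.

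Type I interferons, such as interferon beta, signal through the receptor Ifnar1/Ifnar2 to a transcription factor complex that includes Stat2 and Irf9 and binds the interferon-stimulated response element in target promoters. Interferon gamma has a receptor of its own, and many of its target promoters carry the gamma-activated site. The products sense viral nucleic acid, block viral entry, translation and budding, or attack the vacuoles of intracellular parasites. Spleen cells show a low tonic level of this programme without infection.

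The response element was searched for in the promoter windows that RefSeq gives for GRCm38.p6, 250 bases before to 50 after each transcript start, as GAAA, any 2 bases, GAAA, or on the other strand TTTC, any 2 bases, TTTC. Overlapping matches were each counted. Of the 43 measured members 34 had a window, and 18 of these (52.9%) held the motif, against 3.99% of all 27025 genes in the table. The gamma-activated site, TTC, any 3 bases, GAA, which reads the same on both strands, was in 12 of the 34 (35.3%), against 9.55% of all genes. These matches describe the reference sequence of C57BL/6J and not a bound site, and the animals were BALB/c. The stretches below are shown because their genes carry the results that follow: Ifit1, Rsad2 and Oas3 stood high in 1 control animal, Ifitm2 was higher in both Pb arrays after correction, Igtp was the steadiest in controls, and Isg15 has the densest element, with 3 overlapping matches. Capitals mark the motif, and each is written 5′ to 3′ along the gene's strand and ends before the transcript start.
Ifit1: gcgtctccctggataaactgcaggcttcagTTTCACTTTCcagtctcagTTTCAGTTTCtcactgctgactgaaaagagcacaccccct
Rsad2: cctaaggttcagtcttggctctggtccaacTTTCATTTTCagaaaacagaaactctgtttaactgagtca
Oas3: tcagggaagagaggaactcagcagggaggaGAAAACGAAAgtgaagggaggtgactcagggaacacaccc
Ifitm2: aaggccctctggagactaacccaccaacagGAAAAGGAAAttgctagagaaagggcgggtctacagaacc
Igtp: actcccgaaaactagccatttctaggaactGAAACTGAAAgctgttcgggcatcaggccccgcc
Isg15: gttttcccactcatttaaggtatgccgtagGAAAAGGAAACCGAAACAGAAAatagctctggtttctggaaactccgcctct

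In GRCm38.p6 the Ifit1 stretch is chr19:34640755-34640843 on the plus strand, with matches that begin at -104 and -85 from the transcript start. That of Rsad2 is chr12:26456533-26456602 on the minus strand (match at -120) and that of Oas3 is chr5:120777695-120777764 on the minus strand (match at -75). That of Ifitm2 is chr7:140955968-140956037 on the minus strand (match at -46), and that of Igtp is chr11:58199492-58199555 on the plus strand (match at -34). The Isg15 stretch is chr4:156200845-156200926 on the minus strand, with matches from -78 to -66.

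Single genes were compared between the 3 control arrays and Pb replicates 1 and 2. Pb replicate 3 was left out because its values bore no relation to the probes (r = 0.048 with the control mean). The level of Pb replicate 2 drifted along the array, and its r with the control mean was 0.67 as deposited and 0.93 after a smooth surface over array position and level had been removed from every array. It remained the noisier array, with a median absolute deviation of 0.59 on the log2 scale against 0.24 to 0.30 in the others. All levels below are log2 values after that correction, with the array median near 0, and a difference is Pb minus control. As a rough background, the 95th percentile of 590 probes for olfactory and vomeronasal receptors, genes not known to be used in spleen, lay at 2.17 in controls. Of the 43 members 22 lay above it, and the others, Isg15, Ifit1, Mx1 and Oasl2 among them, may include background signal. Markers of B cells (6 of 6), T cells (6 of 7), neutrophils (6 of 6) and erythroid cells (4 of 4) lay above it, as the label of spleen calls for. Those of other spleen cells did so less often: conventional dendritic cells (4 of 6), macrophages (3 of 5), plasmacytoid dendritic cells (1 of 5) and NK cells (1 of 5). In whole tissue, fewer cells of a type and less RNA per cell cannot be told apart. Both Pb spleens also carried exocrine pancreas transcripts, with a summed linear level over 8 marker genes of 121 and 148 against 3.35 to 3.91 in controls. The part of that tissue in the differences below was not tested.

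No interferon-stimulated gene passed the adjusted threshold of 0.05 between Pb and control spleens. Of the 43 members 40 passed the filter on low signal and were tested, and 0 rose and 0 fell (limma, Benjamini-Hochberg over all 24464 probes tested). Their adjusted p lay between 0.622 and 0.991. Over all probes, 15 passed, which is 0.0613%. At 1 probe a gene 11 passed, and 8 of these were the 8 exocrine pancreas markers. At an unadjusted p under 0.05 there were 2 members of the 40 (5.0%), Oasl2 and Ifitm2, both higher in Pb, against 7.18% of all probes (3.88% higher and 3.3% lower). Members are counted at 1 probe a gene. Counted in that way, 492 of the 13828 genes tested were higher at that p and 297 were lower. The median difference of the 43 members was 0.11 (quartiles -0.10 and 0.31), and that of all 17848 genes was 0.03; 25 of the 43 (58.1%) had a difference above 0, against 54.1% of all genes. The 95% confidence interval of a member reached a median of 0.56 to each side of its difference.

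Pb replicates 1 and 2 each exceeded every control in 9 of the 43 members (20.9%), against a background of 13.0% of all genes. They were Dhx58, Dtx3l, Gbp3, Ifitm2, Irf1, Oasl2, Parp9, Stat2 and Zbp1. Of these only Ifitm2 and Irf1 had a control mean above the receptor background of 2.17. Both Pb replicates fell short of every control in 1 member (2.33%), Igtp, against 11.1% of all genes. Without Pb replicate 2 these counts were 16 and 5 for Pb replicate 1 alone, against 26.4% and 29.7% of all genes (37.2% and 11.6% of the members). Without Pb replicate 1 they were 20 and 14 for Pb replicate 2 alone, against 39.2% and 28.1% (46.5% and 32.6% of the members). The counts turned with the correction: without it, 2 members lay above (4.65%, against 19.1% of all genes) and 15 below (34.9%, against 19.6%). With a surface over array row alone 3 lay above (6.98%, against 16.0%) and 19 below (44.2%, against 28.8%). Without control replicate 1, 16 lay above (37.2%, against 18.8%) and 2 below (4.65%, against 17.4%).

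The probes around each member were read to describe any departure by array position that the correction may have left. Over the probes within 1 row and 3 columns of a member's probe, the median difference lay between -0.57 and 0.53, with a median of -0.01 over the 43 members, and was 0.3 or more from 0 for Irf1, Ifitm2 and Rsad2. In size, whatever the sign, that of the neighbours was at least the member's own difference for 16 of the 43. For 1 of the 9 members above all controls, Irf1, it was at least as large and of the same sign. For Ifitm2 it was as large but of opposite sign (-0.57 against 0.57). The same figures were not computed over all genes, so a departure left by position cannot be told from noise.

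**Figure D1:**
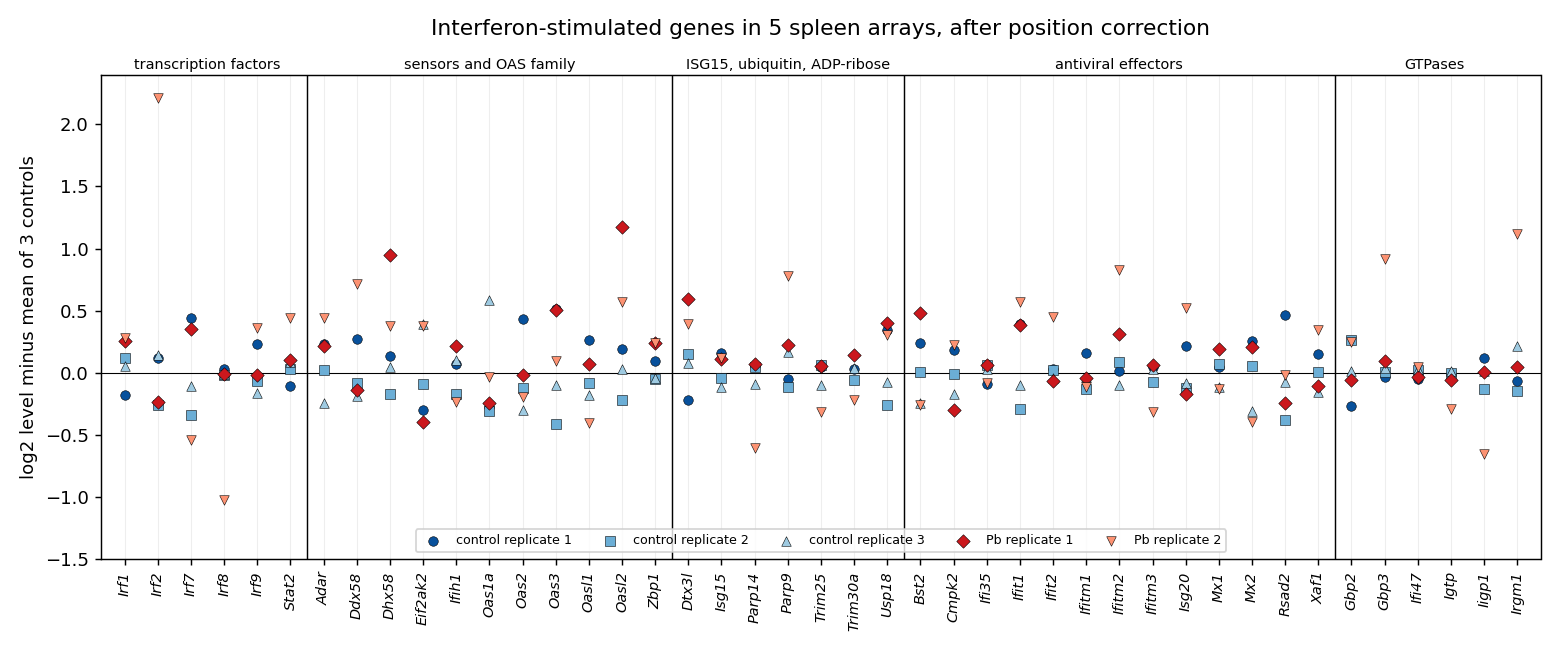
Log2 level of each of the 43 measured interferon-stimulated genes minus the mean of its 3 controls (vertical axis), after position correction, for 3 control arrays (blue) and Pb replicates 1 and 2 (red and orange). Genes are grouped by role along the horizontal axis; most points lie within 0.5 of the control mean, and the widest single value is Irf2 in Pb replicate 2.

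Among the transcription factors of the response, 6 were measured and none passed. Irf1, an early activator in interferon gamma signalling, was at 3.52, 3.82 and 3.75 in controls and at 3.95 and 3.98 in Pb. Both Pb arrays lay just above the highest control, a difference of 0.27 (SE 0.18, limma adjusted p = 0.644). Its 13 neighbouring probes had a median difference of 0.37, and of 0.53 in Pb replicate 2 alone, so that the probes around Irf1 were higher by as much as Irf1 was. Stat2, a part of the type I complex, was at 1.33, 1.46 and 1.52 in controls and at 1.54 and 1.88 in Pb, a difference of 0.27 (SE 0.19). Its Pb replicate 1 exceeded the highest control by less than the controls differed among themselves. Irf9, the DNA-binding part of that complex, was at 3.01, 2.71 and 2.61 in controls and at 2.75 and 3.14 in Pb, so the groups overlapped.

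Irf7, the factor that amplifies interferon alpha production, was at 5.70, 4.92 and 5.16 in controls and at 5.61 and 4.72 in Pb. Its highest and its lowest array thus belonged to different groups, and the difference was -0.10 (SE 0.35, 95% confidence interval -0.96 to 0.77). Irf2 and Irf8 differed through Pb replicate 2 alone. Irf2, an attenuator of the response, was at 0.99, 0.61 and 1.01 in controls, at 0.64 in Pb replicate 1 and at 3.09 in Pb replicate 2. The difference of 0.99 (SE 0.68, adjusted p = 0.649) was 2.23 without Pb replicate 1 (adjusted p = 0.0088) and -0.24 without Pb replicate 2. Irf8, a factor of myeloid and B cell development, was at 3.12, 3.07 and 3.08 in controls, at 3.08 in Pb replicate 1 and at 2.06 in Pb replicate 2. Its difference of -0.52 was -1.03 without Pb replicate 1 (adjusted p = 0.024) and -0.01 without Pb replicate 2. In the fit without Pb replicate 1, which rests on the noisier array, 2926 of all 24464 probes passed.

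Of the sensors of viral nucleic acid and their effectors, 11 were measured, 9 were tested and none passed. Oasl2, a protein related to the oligoadenylate synthetases, had the smallest p of all members. It was at -0.09, -0.50 and -0.26 in controls and at 0.89 and 0.28 in Pb, and both Pb arrays were clear of the controls, but all 5 values lay under the receptor background of 2.17. The difference of 0.87 (SE 0.25, 95% confidence interval 0.26 to 1.48) had an unadjusted p of 0.013 and an adjusted p of 0.622 (limma). It was above 0 in 18 of 18 alternative settings, from 0.17 without position correction to 1.17 without Pb replicate 2, with an unadjusted p under 0.05 in 14 of the 18. These settings reuse the same arrays, so the counts are no replication, and a change of filter leaves the difference itself as it was. In deposited intensity, the Oasl2 controls were at 0.993, 0.738 and 0.999 and the Pb arrays at 1.47 and 0.699, so before correction the groups overlapped. Its 20 neighbouring probes had a median difference of 0.04.

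Other genes of the sensing group showed smaller or mixed values. Zbp1, a sensor of Z-form nucleic acid, was at 1.39, 1.25 and 1.25 in controls and at 1.53 and 1.54 in Pb. These last were close to each other and above all controls, with a difference of 0.24 (SE 0.16, adjusted p = 0.647), which was -1.18 without correction. Dhx58, the helicase Lgp2, lay under the filter and had no test, with -2.01, -2.31 and -2.10 in controls and -1.19 and -1.77 in Pb. Adar, which edits adenosine in double-stranded RNA, was at 2.96, 2.75 and 2.48 in controls and at 2.94 and 3.17 in Pb, a difference of 0.33 (SE 0.21). Its groups overlapped. Eif2ak2, the kinase PKR that halts translation, was at -1.09, -0.89 and -0.40 in controls and at -1.19 and -0.42 in Pb, with a like span in both groups. Oas1a, a synthetase that activates RNase L, lay under the filter at -2.30, -2.33 and -1.44 in controls and -2.27 and -2.06 in Pb. The RNA helicases Ifih1 and Ddx58 had differences of -0.01 and 0.29, and Oas2, Oas3 and Oasl1 of -0.11, 0.30 and -0.17, all with overlapping groups.

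**Figure D2:**
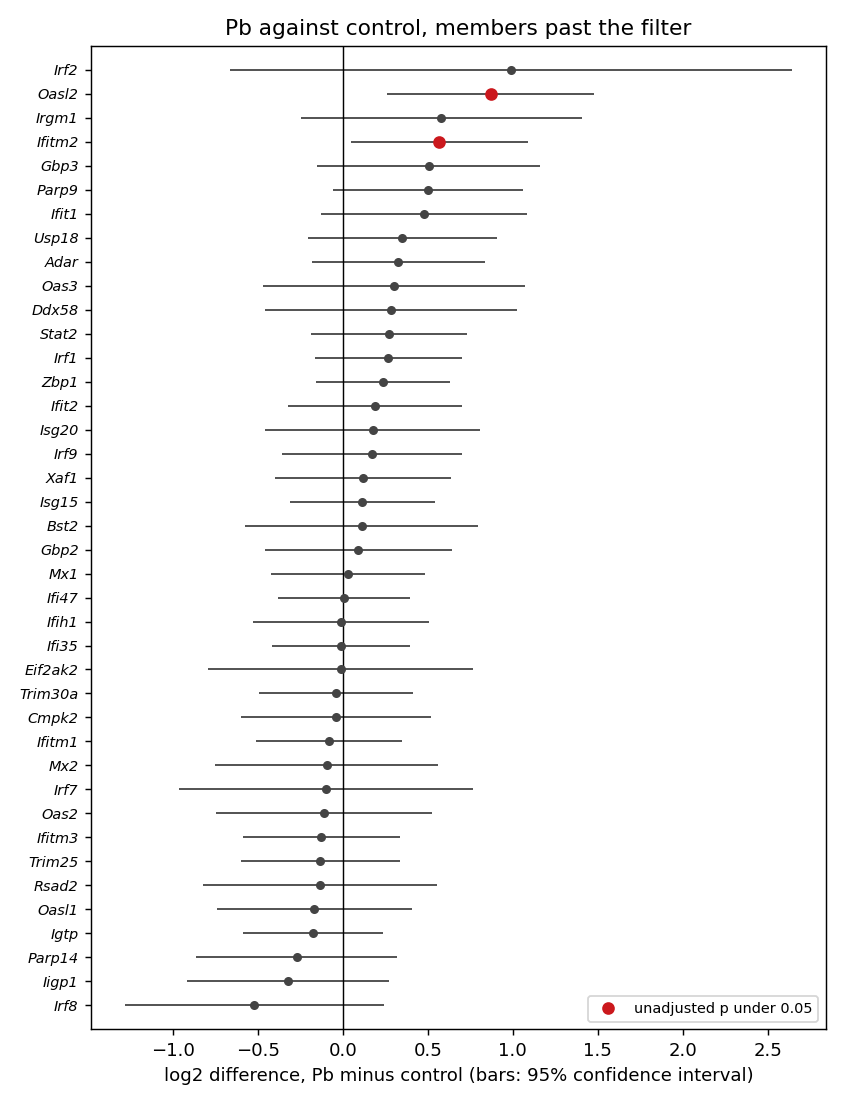
Log2 difference, Pb minus control, of the 40 members tested (points), with the 95% confidence interval of the limma fit (bars), sorted by size on the vertical axis. Oasl2 (0.87) and Ifitm2 (0.57), in red, are those with an unadjusted p under 0.05, and the interval of every other member includes 0.

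In the ISG15 system and among the ubiquitin and ADP-ribose enzymes, 7 were measured, 6 were tested and none passed. Isg15, the ubiquitin-like modifier, was at -0.06, -0.26 and -0.34 in controls and at -0.11 and -0.10 in Pb. Both of the latter fell inside the control range, with a difference of 0.12 (SE 0.17). Usp18, the protease that removes Isg15 and damps the receptor, was at 2.39, 1.79 and 1.98 in controls and at 2.45 and 2.36 in Pb, so that control replicate 1 lay with the Pb arrays. The difference was 0.35 (SE 0.23, adjusted p = 0.641). Parp9 and Dtx3l, which form a complex of an ADP-ribosyltransferase-like protein with a ubiquitin ligase, were each higher in the 2 Pb arrays than in any control. Parp9 was at 2.09, 2.02 and 2.30 in controls and at 2.36 and 2.92 in Pb, a difference of 0.50 (SE 0.23, adjusted p = 0.622) that was -0.94 without correction. Dtx3l lay under the filter at -2.49, -2.12 and -2.19 in controls and at -1.67 and -1.87 in Pb. Parp14, Trim25 and Trim30a had differences of -0.27, -0.13 and -0.04.

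The antiviral effectors gave 13 measured and tested genes, none of which passed. Ifitm2, a membrane protein that hinders viral entry, was at 3.64, 3.72 and 3.54 in controls and at 3.95 and 4.46 in Pb. Both Pb arrays lay above the narrow control range, by a difference of 0.57 (SE 0.21, unadjusted p = 0.037, adjusted p = 0.622), a fold of 1.48. The sign turned to -1.12 without correction and to -0.09 with a surface over array row alone, and without Pb replicate 1 the difference was 0.82 (adjusted p = 0.043). The unadjusted p was under 0.05 in 7 of 18 alternative settings, and was above it, among others, with the coarser surface (0.091), with array weights (0.055), with the replicate block (0.12) and without any 1 of the controls (0.078 to 0.11). The 11 neighbouring probes had a median difference of -0.57, opposite in sign to that of Ifitm2. In deposited intensity Pb replicate 1 was at 16.8 and the controls at 11.3, 13.6 and 11.2, whereas Pb replicate 2 was at 1.80. Its relatives Ifitm1 and Ifitm3 did not separate the groups, with differences of -0.08 and -0.13. Probes for such close relatives can bind more than 1 transcript.

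Ifit1, which binds viral RNA that lacks the host cap marks, was at 1.65, 0.97 and 1.15 in controls and at 1.64 and 1.82 in Pb. Control replicate 1 lay with the Pb arrays, and the difference was 0.48 (SE 0.25, adjusted p = 0.622). Rsad2, the enzyme viperin, was at 4.70, 3.85 and 4.16 in controls and at 3.99 and 4.22 in Pb, inside the control range. Its 15 neighbouring probes had a median difference of 0.53, and of 1.37 in Pb replicate 2 alone. Mx1, a GTPase that traps influenza virus and that many inbred laboratory strains carry in a defective form, was at 0.22, 0.25 and 0.06 in controls and at 0.37 and 0.05 in Pb. Mx2 was at 1.79, 1.60 and 1.24 in controls and at 1.75 and 1.15 in Pb. For both Mx genes Pb replicate 2 was the lowest array, and the groups overlapped. Bst2, or tetherin, which holds budding virus at the cell surface, was at 3.96, 3.73 and 3.48 in controls and at 4.205 and 3.46 in Pb, so that Pb held both the highest and the lowest array. Ifit2, Ifi35, Isg20, Cmpk2 and Xaf1 had differences from -0.04 to 0.19.

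The interferon-inducible GTPases, which act on the vacuoles of intracellular pathogens, had the lowest median control SD of the roles, 0.085. It was 0.16 over all members, 0.155 over all genes past the filter and 0.19 over all genes. The GTPases were not alike, with a control SD of 0.012 for Igtp but 0.26 for Gbp2 and 0.19 for Irgm1. Of 6 measured and tested none passed. Igtp was at 3.75, 3.76 and 3.78 in controls and at 3.71 and 3.47 in Pb. It was the member with both Pb values under every control. The difference of -0.17 (SE 0.17, adjusted p = 0.731) was below 0 in every alternative run. Gbp3 was at 1.51, 1.55 and 1.58 in controls, at 1.64 in Pb replicate 1 and at 2.46 in Pb replicate 2. Most of its difference of 0.51 (SE 0.27) came from Pb replicate 2; it was 0.09 without that array, 0.86 (adjusted p = 0.034) without Pb replicate 1, and -1.34 without correction.

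Irgm1, a regulator of the other GTPases of its family, was at 2.30, 2.23 and 2.58 in controls and at 2.42 and 3.48 in Pb. Pb replicate 1 lay among the controls, and the difference of 0.58 became 0.05 without Pb replicate 2. Without Pb replicate 1 it became 1.19 (adjusted p = 0.033). Gbp2 was at 0.94, 1.46 and 1.21 in controls and at 1.14 and 1.45 in Pb, inside the control range. Ifi47 spanned 5.65 to 5.75 over all 5 arrays. Iigp1 had a difference of -0.32, again through Pb replicate 2 (2.89 against 3.41 to 3.66 in controls).

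Where a member had more than 1 probe, the probes often differed. The 3 probes of Xaf1 gave differences of 0.12, 0.19 and 0.19. The second probe of Iigp1, dim in controls at -1.67, -1.64 and -2.70, was at -0.86 and -0.72 in Pb, a difference of 1.21 (SE 0.36, unadjusted p = 0.015, adjusted p = 0.622), against -0.32 for the brighter probe. The second probe of Eif2ak2, under the filter, had 1.38 against -0.01. The second probe of Trim25 was below all controls in both Pb arrays, with -0.23 against -0.13. The probes of Parp14 ranged from -0.89 to 0.03, and the lowest of these rested on a value of -2.80 in Pb replicate 2.

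Genes upstream of the response did not pass either. Of a list of ligands, receptors, kinases, factors and regulators, 38 genes were measured and 33 tested; 0 rose, 0 fell and 0 had an unadjusted p under 0.05. Their median difference was -0.00496, and 5 were above and 5 below every control in the 2 Pb arrays (backgrounds of 13.0% and 11.1%). Every ligand measured, and also Tbk1, Socs3 and Ptpn2, had a control mean under the receptor background of 2.17. Among ligands, Ifna9 was at -0.59, -0.41 and -0.43 in controls and at -0.09 and -0.23 in Pb, and Ifnl3 differed by 0.23. Ifnz, under the filter, differed by -1.41. Ifnb1 was at -1.02, -3.29 and -0.76 in controls and at -1.16 and -1.20 in Pb, so the groups overlapped at low signal. The kinase Jak1, which serves both receptors, was at 7.52, 7.11 and 7.26 in controls and at 7.56 and 7.78 in Pb, while Tyk2 and Ifnar1 lay below the controls, with differences of -0.31 and -0.21. On the inducing side, Tbk1, the kinase that activates Irf3, differed by 0.34. Stat3 was at 5.53, 5.19 and 5.20 in controls and at 5.01 and 4.48 in Pb, a difference of -0.57 (SE 0.23, adjusted p = 0.622). Socs3, a feedback inhibitor, lay below the controls with -0.40, and Ptpn2, a phosphatase of Stat proteins, above them with 0.55. No probe carried the symbol of Ifng alone.

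Many members shared a pattern among the control animals, in which control replicate 1 was high. It had the highest control value for 25 of the 43 members (58.1%), against 29.8% of all genes, whereas control replicate 2 was highest for 7 (36.6% of all genes) and control replicate 3 for 11 (33.6%). Control replicate 1 exceeded both other controls by 0.3 or more for 8 members (18.6%), against 9.18% of all genes. Control replicate 2 did so for 0 members (9.41% of all genes) and control replicate 3 for 2 (8.94%). The 8 were Ddx58, Ifit1, Irf7, Oas2, Oas3, Oasl1, Rsad2 and Usp18. They were picked out after their values had been seen, so no test is given. Of the 6 among them with a promoter window, 4 (66.7%) held the response element. So did 4 of 5 GTPases (80.0%), for which control replicate 1 was highest in 1 of 6.

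Relative to the mean of the other 2 controls, control replicate 1 was higher by 0.77 for Oas3, 0.69 for Rsad2, 0.66 for Irf7, 0.65 for Oas2, 0.59 for Ifit1, 0.51 for Usp18, 0.41 for Ddx58 and 0.39 for Oasl1. The median was 0.14 over all members and -0.03 over all genes. Pb replicate 1 was near control replicate 1 for 4 of these: Irf7 (5.61 against 5.70), Oas3 (3.22 against 3.22), Usp18 (2.45 against 2.39) and Ifit1 (1.64 against 1.65). For Rsad2 (3.99 against 4.70), Oas2 (1.80 against 2.25) and Ddx58 (1.32 against 1.74) it was lower, and Oasl1 (3.01 against 3.20) lay between control replicates 1 and 2. The second probe of Oas3 did not show the pattern, with 1.97, 2.17 and 1.84 in controls. Without position correction control replicate 1 was highest for 18 members (41.9%, against 27.8% of all genes) and exceeded the others by 0.3 for 8 (18.6%, against 10.1%). In those values control replicate 3 was highest for more of them, 20 (46.5%, against 40.5% of all genes), and exceeded the others by 0.3 for 5 (11.6%, against 14.3%).

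The neutrophil markers moved with control replicate 1 in the same direction. It was the highest control for 6 of 6 of them (S100a8, S100a9, Mpo, Elane, Camp and Ltf), by a median of 0.45. Their summed linear level was 238 to 328 in controls, 463 in Pb replicate 1 and 266 in Pb replicate 2. The 7 T cell markers had a median of -0.21 on the same measure, and the 5 NK cell markers -0.35. B cell, conventional dendritic cell and erythroid markers had -0.07, -0.09 and -0.04. The 5 macrophage markers had 0.15, with 3 of 5 highest in control replicate 1. The 5 plasmacytoid dendritic cell markers, cells known for interferon alpha production, had 0.17, with 3 of 5 highest in control replicate 1 and Siglech, Ccr9, Cox6a2 and Pacsin1 not above the receptor background. The part of these cells in the pattern was not tested.

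**Figure D3:**
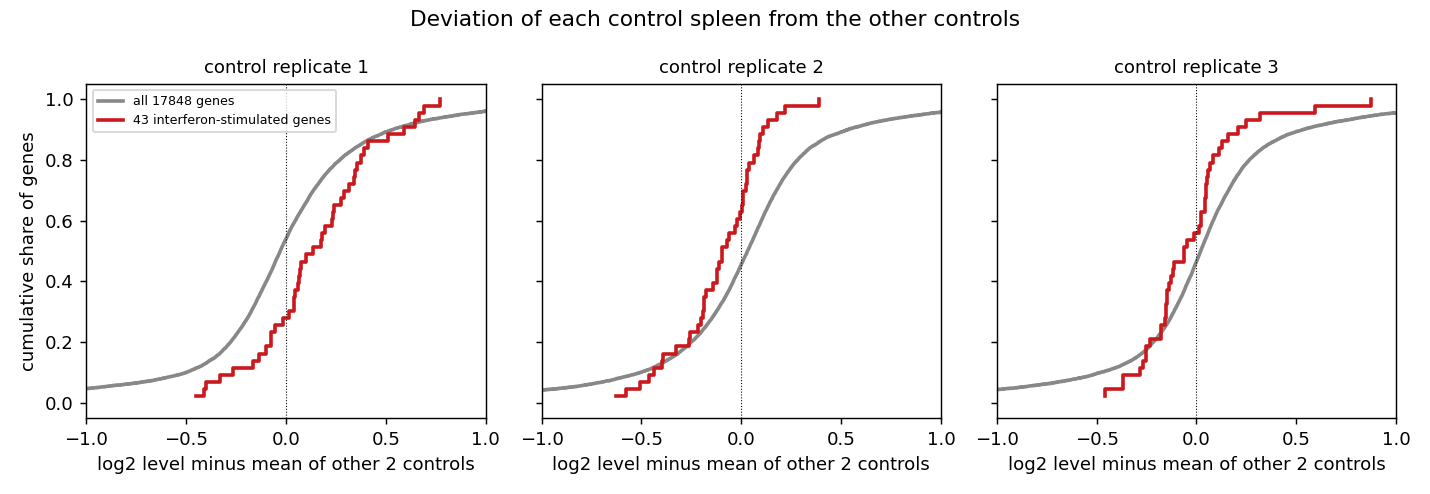
Cumulative share of genes (vertical axis) against the log2 level of a control array minus the mean of the other 2 controls (horizontal axis, shown from -1 to 1), for 43 interferon-stimulated genes (red) and all 17848 genes (grey). The red curve lies to the right of the grey one over most of its range in control replicate 1 (median 0.14 against -0.03), and its median lies to the left in control replicates 2 (-0.10 against 0.03) and 3 (-0.06 against 0.02).

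The position correction changed the sign of many differences between Pb and control. Without it the median over the members was -0.55, and 13 of 43 were above 0, against 25 of 43 with it (54.1% of all genes), while the median of all genes was -0.01. With a surface over array row alone, without level and column, the members' median was -0.39 and that of all genes -0.12. Bst2 went from -1.80 to 0.11, Irf9 from -0.98 to 0.17, Isg20 from -1.70 to 0.17 and Gbp2 from -1.40 to 0.09 when the correction was applied. Of the 9 members with both Pb values over every control, Dhx58, Dtx3l, Irf1, Oasl2 and Stat2 had a difference above 0 both with and without it. The uncorrected sign carries the drift of Pb replicate 2, so it is no separate check. Without correction only Dtx3l and Stat2 of these had both Pb values over every control. Pb replicate 2 was then the lowest array for Dhx58 and Oasl2 and lay inside the control range for Irf1.

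**Figure D4:**
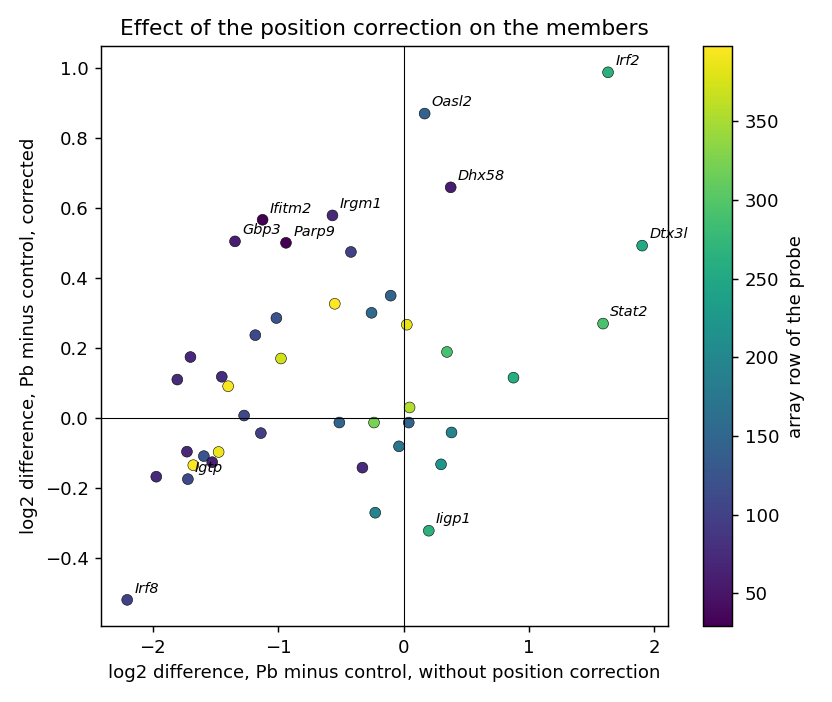
Log2 difference, Pb minus control, of the 43 members without position correction (horizontal axis) and with it (vertical axis), coloured by the array row of the probe. The uncorrected values reach from -2.20 (Irf8) to 1.90 (Dtx3l) and the corrected ones from -0.52 to 0.99, and points in the upper left turned from negative to positive.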

How the data were processed

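The authors deposited 1-colour intensities on a linear scale, 1 array per animal, with array medians between 0.972 and 0.987, which looks like scaling to a median. The background correction is not given in the sources used here. Non-positive values were set to the 1st percentile of an array's positive values before taking log2. Pb replicate 3 and array rows from 402 were left out. The smooth part of each array's departure from a reference (mean of 3 controls and Pb replicate 1) was subtracted, over 2 rounds, with mgcv 1.9.3 (basis sizes of 40 for array row, 6 for level and 8 for column). Differences were tested with limma 3.58.1 in R 4.3.3 (eBayes, two-sided, Benjamini-Hochberg), on probes at or above the 30th percentile of the mean. The arrays used, the correction, the members and the gene lists were chosen with earlier results of these data known. A gene with several probes is given by the brightest. Genes given by array were those whose groups do not overlap, the 12 with the smallest p and a fixed set. The scripts were tested on simulated data. The number of arrays limits the precision.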

Additional observations from a re-analysis of the deposited data

How the results depend on the processing

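Of 18 alternative settings, 17 gave 0 members past the adjusted threshold. The other, without Pb replicate 1, leaves a lone Pb array, and members passed there at about the rate of all probes. The 2 members at an unadjusted p became 5 without correction (12.5% of those tested, against 14.7% of all probes), 13 with a surface over array row alone (32.5%, against 28.8%), 4 with 6 arrays as deposited (9.76%, against 7.01%), and 1 with the coarser surface, without the filter, with array weights and with the replicate block, and were 1 to 10 with 1 array left out (10 of 40 without Pb replicate 1, against 30.7%). The median difference of 0.11 became -0.55 without correction, -0.39 with array row alone and -1.13 with 6 arrays, and was 0.059 to 0.17 with 1 array left out. The 9 members above all controls became 2, 3 and 2 in these 3 settings (4.65%, 6.98% and 4.65%, against 19.1%, 16.0% and 9.16% of all genes). With 1 array left out they were 10 to 20 (23.3% to 46.5%, against 18.6% to 39.2%). The 1 member below all controls became 15, 19 and 11 in those 3 settings (34.9%, 44.2% and 25.6%, against 19.6%, 28.8% and 13.8%). It was 2 with quantile normalization (4.65%, against 12.2%) or with the mean of a gene's probes (4.65%, against 10.7%). The count was 3 with the pseudocount of 0.25 (6.98%, against 13.9%), and 2 to 14 with 1 array left out (4.65% to 32.6%, against 15.3% to 29.7%). The 15 probes past the threshold became 0 without correction, without the filter and with 6 arrays, 25 with the pseudocount, 7 with array weights, 7 with the replicate block, and 2 to 2926 with 1 array left out.

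Among 468 comparisons of 26 named members 463 showed no change of call. That count includes comparisons with no adjusted p, which were held as uncalled. Dhx58, Dtx3l and Oas1a had none in the main fit and in most settings. Isg15 and Eif2ak2 had none with the filter at the 50th percentile. The calls that changed were all without Pb replicate 1, as given with Gbp3, Ifitm2, Irf2, Irf8 and Irgm1. Without a call, 58 differences changed sign, 12 of them without correction. The count of 8 members high in control replicate 1 was 12 with a surface over array row alone (27.9%, against 10.2% of all genes). These settings were chosen after seeing the data. Nothing in the labels ties arrays that share a number. Their deviations from the group means had r = 0.026 and 0.00016, and with the replicate block the members' median was 0.09. The fit that leaves a lone Pb array assumes that it varies like the controls. The 6-array values include Pb replicate 3, which bears no relation to the probes. The cause of the other changes was not tested. Signal near background limits the differences of dim members.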
